A study of Mus musculus with 6 samples.

Results

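Semaphorins, plexins, a neuropilin and an Eph receptor were followed through bulk RNA-Seq of BM donor CD8+ T cells. The set is 8 genes chosen by symbol, with earlier results of these data known, out of the 14051 genes listed, and all 8 were found. Ligands were Sema4a, Sema4b, Sema4d and Sema7a, and receptors were Plxnb2, Plxnd1, Nrp1 and Epha3. The B6D2F1 recipients received purified T cells of B6.CD45.1+ donors after total body irradiation on day -1. The GC was dexamethasone in a soluble form, at a daily i.p. dose of 5 mg/kg that began on day -1 and ended on day 5 of BMT, and controls had only its carrier, methyl β-cyclodextrin in PBS. On day 5 an anti-CD45 antibody given i.v. before euthanasia marked the cells lying inside vessels, and marked donor CD8+ T cells were sorted. There were 3 libraries labelled GC-treated and 3 labelled vehicle-treated, and each is named here by its label and number (GC-treated 1, vehicle-treated 1). BM was pooled from 2 to 3 mice for a biological group, and the methods leave unsaid whether every library came from a pool of its own, so p-values measure the spread between libraries, which may be technical. In bulk RNA, fewer cells of a type and less RNA per cell cannot be told apart.

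Semaphorins are membrane-bound or secreted ligands that were first known for steering growing axons and that also act between immune cells. They signal mainly through plexins, which act on small GTPases and so on the cytoskeleton and on integrin adhesion, and neuropilins serve as coreceptors. Eph receptors are receptor tyrosine kinases whose ligands, the ephrins, are themselves held in the membrane, so that signals pass on cell contact. On T cells, class 4 semaphorins and Sema7a take part in contacts with antigen-presenting cells and with tissue.

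The unit throughout is the normalized count, the reads of a gene divided by a single scaling factor per library. Depth on the listed genes was 60949593 to 76888118 reads per library. Markers of CD8 T cells were abundant, with 9 of 10 listed genes in the table and a summed level of 456948 to 563252. Of the other cell types, summed markers were 14864 to 19887 for CD4 and regulatory T cells (highest mean Il2ra), 1289 to 1799.6 for B and plasma cells (Cd79b), 1454 to 2083 for monocytes and macrophages (C1qb) and 24129 to 35426 for dendritic cells (Irf8). They were 3997 to 5089 for NK cells (Eomes), 2505 to 3118 for endothelial cells (Pecam1), 28.8 to 1052 for stromal cells (Cxcl12) and 153 to 419 for erythroid cells and platelets (Hba-a1). Within a list, mean normalized counts over all libraries differed widely. For dendritic cells, Irf8 (15643), Itgax (8024) and Bst2 (7210) stood beside Flt3 (11.05). For CD4 and regulatory T cells, Il2ra (9821) and Ctla4 (3713) stood beside Cd4 (128.2). Ncr1 had 23.3 beside 4513 for Eomes, and Cdh5 had 3.21 beside 2877 for Pecam1. These sums thus give no share of such cells, and which cells made the reads was not tested. The summed neutrophil markers varied with several of the 8 genes and are given beside them. Of 7 listed targets of the glucocorticoid receptor, 6 were tested, 5 had negative log2 fold changes between the labelled groups (median -0.24) and none passed the test. The log2 fold change of Fkbp5 was -0.59 (SE 0.17, adjusted p = 0.62 by limma) and that of Tsc22d3 was -0.23 (SE 0.37, adjusted p = 0.83 by limma). Dusp1, a phosphatase gene, went the other way at 0.47 (SE 0.16, adjusted p = 0.62 by limma). For Sema7a and each of the 4 receptors, the highest 3 libraries were GC-treated 1 and vehicle-treated 1 and 2, and the lowest 3 were GC-treated 2 and 3 and vehicle-treated 3. Directions below are those of the labels.

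Among the ligands, Sema4a and Sema4d were abundant and even, and Sema4b and Sema7a were scarce. Sema4a (GRCm39 chr3:88343262-88372558, minus strand), a class 4 semaphorin that signals to T cells, had normalized counts of 33534, 38599 and 32852 in GC-treated 1 to 3, against 34374, 29673 and 36422 in vehicle-treated 1 to 3. The groups overlapped, and the highest library was only 1.30-fold above the lowest. Sema4d (chr13:51836318-51947922, minus strand), known as CD100 and long known on resting T cells, had 35303, 34729.6 and 29018 in GC-treated 1 to 3 and 35448, 35617 and 40858 in vehicle-treated 1 to 3. Every library labelled GC-treated lay below every vehicle-treated library, although GC-treated 1 and vehicle-treated 1 were nearly level. Exons of Sema4d overlap those of Secisbp2 on the other strand, and the kit keeps no strand, so some reads could belong to either gene. Exons of Sema4a, Sema7a, Plxnb2 and Nrp1 overlap predicted or microRNA genes, and those of Sema4b, Plxnd1 and Epha3 overlap no other.

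Sema4b (chr7:79836046-79876334, plus strand), another membrane-bound class 4 semaphorin, had 332, 238 and 232 in the libraries labelled GC-treated and 338, 455 and 421 in the vehicle-treated ones, in order of number. These groups did not overlap either, again with GC-treated 1 close to vehicle-treated 1. Sema7a (chr9:57847375-57870151, plus strand), which is anchored to the membrane by a lipid and binds an integrin and a plexin, ranged 8.62-fold. Libraries GC-treated 1 to 3 had 593, 99.2 and 226 normalized counts and 855, 591 and 529 in vehicle-treated 1 to 3. GC-treated 2 and 3 stood low, while GC-treated 1 lay among the vehicle-treated libraries.

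Of the receptors, Nrp1 was the only abundant one, and all 4 were lowest in GC-treated 2 and 3. Nrp1 (chr8:129085085-129231082, plus strand), the coreceptor neuropilin-1, also found on regulatory T cells, had 5286, 2066 and 2965 in GC-treated 1 to 3 and 6232, 8276 and 3403 in vehicle-treated 1 to 3. Epha3 (chr16:63363897-63684538, minus strand), an Eph receptor that binds mainly ephrins of the A class, had 574, 50.6 and 34.9 against 746, 1032 and 175 in the same order. The lowest of these stood for 38 reads (exact Poisson 95% interval 26.9 to 52.2, counting error only), and the highest library was 29.6-fold above it. Epha3 was high in GC-treated 1 and vehicle-treated 1 and 2 and low in the other 3 libraries, which is not the labelled division.

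Plxnb2 (chr15:89039749-89065211, minus strand), a plexin for class 4 semaphorins, had 195, 142 and 57.9 in GC-treated 1 to 3 and 323, 321 and 192 in vehicle-treated 1 to 3. Here GC-treated 1 and vehicle-treated 3 were nearly level. Plxnd1 (chr6:115931772-115972286, minus strand), a plexin known from vessels and from migrating thymocytes, had 140.3, 92.3 and 51.5 against 314, 209.7 and 115, and the groups overlapped through the same libraries. GC-treated 1 lay above vehicle-treated 3 in 5 of 5 of Sema7a and the receptors, and vehicle-treated 1 and 2 held the highest values of 4 of 4 receptors.

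**Figure D1:**
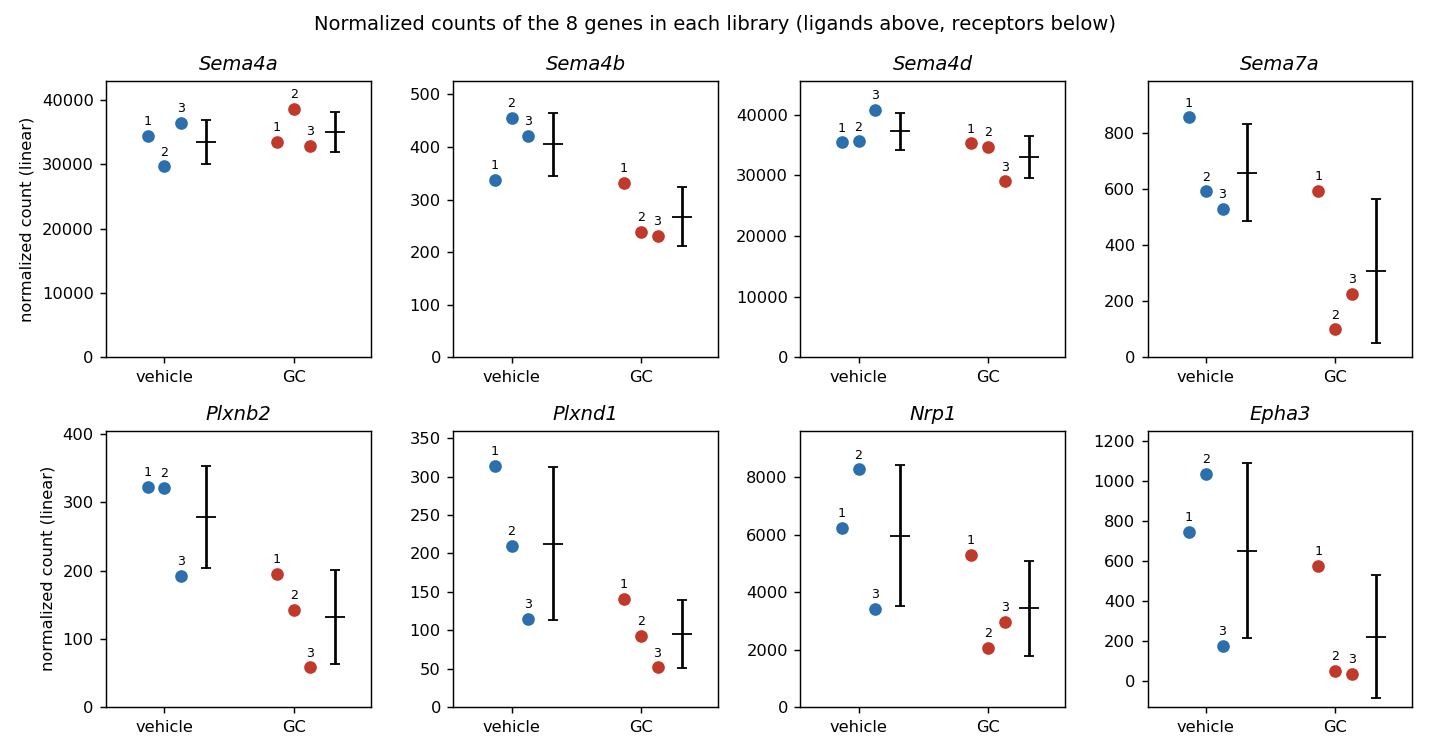
Normalized counts (linear axis) of the 4 ligands (top row) and 4 receptors (bottom row), with each library as a numbered point (blue vehicle-treated, red GC-treated) and the group mean ± SD as a bar (n = 3). The bar of GC-treated libraries for Epha3, 219.9 ± 307, reaches below 0 because GC-treated 1 stands far above the others, and Sema4a and Sema4d are nearly level across all 6 libraries.

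The promoters of Sema7a, Plxnd1 and Epha3, which were all lowest in GC-treated 2 and 3, are shown because glucocorticoid receptor binding is commonly sought there. Each is the 250 bases ahead of the start of the canonical transcript in GRCm39, 5′ to 3′ on the strand of the gene, and the windows of the other 5 genes overlap annotated exons and are not printed. Capitals mark the hexamer TGTTCT of a glucocorticoid response element (AGAACA on the other strand) and the GC box GGGCGG. The windows are chr9:57847125-57847374 for Sema7a, chr6:115972287-115972536 for Plxnd1 and chr16:63684539-63684788 for Epha3.
Sema7a: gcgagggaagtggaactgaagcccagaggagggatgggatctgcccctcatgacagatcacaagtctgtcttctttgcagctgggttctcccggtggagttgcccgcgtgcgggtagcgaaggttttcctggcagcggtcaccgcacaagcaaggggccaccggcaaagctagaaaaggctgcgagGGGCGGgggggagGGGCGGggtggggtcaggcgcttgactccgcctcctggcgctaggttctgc
Plxnd1: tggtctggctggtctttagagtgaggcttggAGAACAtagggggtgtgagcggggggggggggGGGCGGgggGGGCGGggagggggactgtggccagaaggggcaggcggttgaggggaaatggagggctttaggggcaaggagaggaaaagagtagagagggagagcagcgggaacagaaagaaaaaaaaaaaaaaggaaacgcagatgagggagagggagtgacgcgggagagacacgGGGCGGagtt
Epha3: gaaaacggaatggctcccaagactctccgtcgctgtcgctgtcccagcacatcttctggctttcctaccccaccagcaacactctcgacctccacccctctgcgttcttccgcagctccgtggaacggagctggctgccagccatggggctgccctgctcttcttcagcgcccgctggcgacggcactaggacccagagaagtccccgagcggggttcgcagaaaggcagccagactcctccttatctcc
The Plxnd1 window held the hexamer on its minus strand at -219 from the start and GC boxes at -187, -178 and -10. The Sema7a window held GC boxes at -64 and -51, and the Epha3 window held neither motif. On both strands, the hexamer was in 1 of the 8 windows and in 11.8% of 13432 promoters of the same length, and the GC box was in 7 of 8 and in 47.7%. The E-box CANNTG was in 5 of 8 and in 60.9%. The AP-1 site TGANTCA (4.82% of promoters) and the TATA box TATAAA (7.69%) were in 0 of 8. The full palindromic response element, which contains the hexamer on both strands, was in 0% of promoters. The printed windows were 64.4%, 60.8% and 62.8% G and C for Sema7a, Plxnd1 and Epha3, beside a median of 56.4% over all promoters. A match of letters is a description and shows no binding.

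Compared between the labelled groups, none of the 8 genes passed the test, and 7 had negative log2 fold changes. All 8 passed the filter on low values (10 or more normalized counts in 3 or more libraries), as did 11649 genes in all. By limma with Benjamini-Hochberg adjustment, 0 of 8 were called in either direction, and 0% of all tested genes were called higher or lower. By DESeq2, which called 0.0143% of 14034 genes lower and 0% higher, and by edgeR, 0 of 8 were also called. At an unadjusted p under 0.05 by limma, 5 of the 8 were lower, beside 5.07% of all tested genes, and 0 were higher, beside 2.12%. These were Sema4b, Sema7a, Plxnb2, Plxnd1 and Epha3. The same count was 3 by DESeq2 (4.63% of genes lower), 3 by edgeR (3.79%) and 1 by limma without a mean-variance trend (2.82%). With 1 library left out, the share of all genes moved as well. The count was 6 without GC-treated 1 (12.3% of genes lower) and 5 without vehicle-treated 3 (4.26%). It was 1 without GC-treated 2 (3.28%), vehicle-treated 1 (1.94%) or vehicle-treated 2 (1.66%), and 0 without GC-treated 3 (2.65%). A negative log2 fold change was found for 51.5% of all tested genes, and 4 of the 8, beside 3.01% of all, were under -1. Groups without overlap, GC-treated lower, were found for 2 of the 8 (Sema4b and Sema4d) and 6.40% of all genes, and the opposite for 0 of the 8 and 6.40%. The 8 genes were chosen with earlier results of these data known, so the shares of all genes describe the set and do not test it.

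The receptors had log2 fold changes of -2.33 to -0.81. For Epha3 the means were 219.9 ± 307 (SD, n = 3) under the GC-treated label and 651 ± 436 in the vehicle-treated ones, a log2 fold change of -2.33 with a 95% interval of -4.61 to -0.058. Plxnb2, at 132 ± 69.0 and 279 ± 75.1, had -1.20 (-2.19 to -0.21). Plxnd1, at 94.7 ± 44.4 and 213 ± 99.7, had -1.16 (-2.20 to -0.12). The interval for Nrp1, at 3439 ± 1661 and 5970.45 ± 2447, reached from -1.66 to 0.032 around -0.81. These intervals are unadjusted, and the adjusted p was 0.62 by limma for each of the 4 receptors.

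Among the ligands, Sema7a had means of 306 ± 256 and 658 ± 173 and a log2 fold change of -1.44 (-2.65 to -0.22), and Sema4b had 267 ± 56.4 and 405 ± 60.2 and -0.61 (-1.10 to -0.11), each with an adjusted p of 0.62 by limma. The abundant ligands had the narrowest intervals. Sema4d, at 33017 ± 3475 and 37308 ± 3076, had -0.18 (-0.41 to 0.051, adjusted p = 0.63 by limma), which was -0.088 without GC-treated 3 and -0.11 without vehicle-treated 3. Sema4a, at 34995 ± 3139 and 33489.7 ± 3461, had 0.065 (-0.17 to 0.30, adjusted p = 0.82 by limma), and its sign turned without GC-treated 2 (-0.0076) or vehicle-treated 2 (-0.020). Without GC-treated 1, limma called 0.374% of genes lower and 0.0174% higher, still with 0 of the 8, and the fold changes of Sema7a and Epha3 were -2.10 and -3.58. The adjusted p of Sema7a then was 0.061, within a range of 0.061 to 0.92 over all alternatives. Single libraries also moved the values towards 0, with Sema7a at -0.81 and Nrp1 at -0.50 without GC-treated 2, Nrp1 at -0.53 without vehicle-treated 2, and Plxnb2 at -0.70 without GC-treated 3.

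Levels can be compared between genes only per length of exon. The length used was that of all annotated exons of a gene merged, whichever transcripts the cells made, so the order is approximate. Per kb of exon, the mean normalized count was 3748 for Sema4a, 2734 for Sema4d, 309 for Nrp1 and 145 for Sema7a. It was 50.8 for Sema4b, 46.0 for Epha3, 25.1 for Plxnb2 and 19.4 for Plxnd1. The ranges of Sema4a, Sema4d and Nrp1 over the libraries lay apart, although those of Sema4a (3248 to 4224) and Sema4d (2256 to 3177) nearly met. Nrp1 was above Sema7a in 6 of 6 libraries with overlapping ranges. From Sema7a down, neighbours in the order overlapped, and Sema4b exceeded Epha3 in 3 libraries of 6.

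Summed per kb, the ligands of the set were nearly level while the receptors of the set varied several-fold. The ligand sum was 6644, 6991 and 5955 in GC-treated 1 to 3 and 6827, 6264 and 7386 in vehicle-treated 1 to 3. Sema4a and Sema4d made up 95.5% to 99.1% of it. The receptor sum was 449, 169.9 and 212 in GC-treated 1 to 3 and 567, 718 and 279.7 in vehicle-treated 1 to 3, of which Nrp1 took 72.2% to 91.9%. Ligands thus exceeded these receptors by 14.8-, 41.2- and 28.1-fold in the first group and by 12.0-, 8.73- and 26.4-fold in the second. The receptor sum counts Epha3, which binds ephrins. It leaves out Plxnc1 (mean 538 per kb, 450 to 609 over the libraries) and Itgb1 (mean 11920 per kb), which bind Sema7a. Both the ratio and the spread of the receptor sum therefore depend on which receptors are in the set. GC-treated 2 and 3 and vehicle-treated 3 had the high ratios, and GC-treated 1 lay near vehicle-treated 1.

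**Figure D2:**
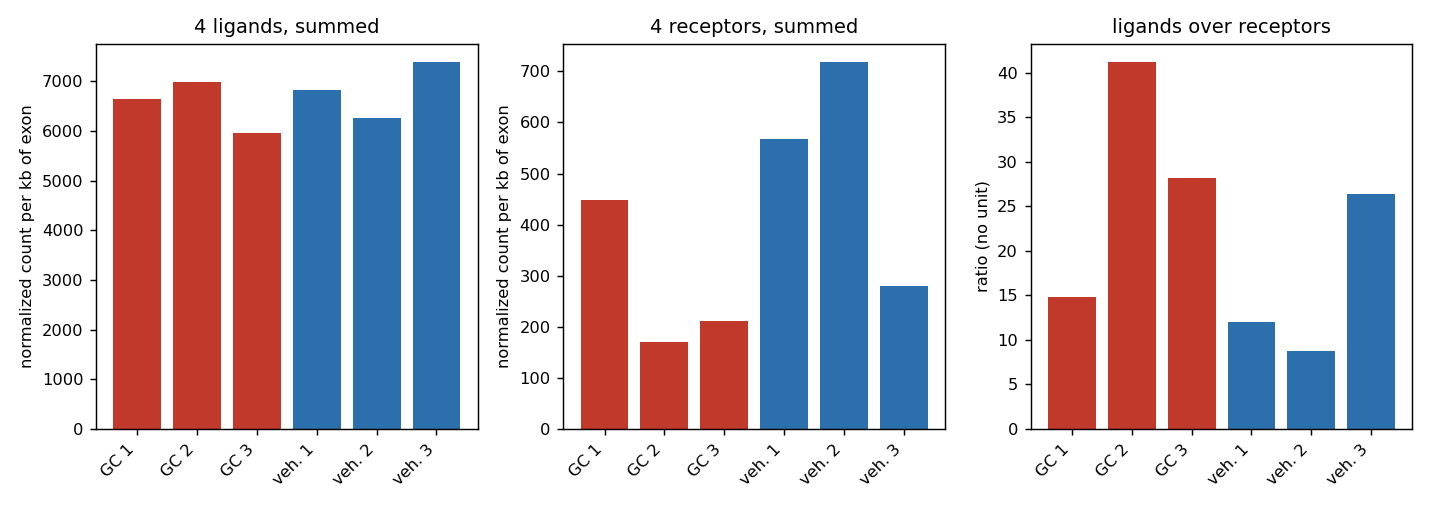
Summed normalized count per kb of exon of the 4 ligands (left) and the 4 receptors (middle), and the ratio of the sums (right), in each library (red GC-treated, blue vehicle-treated). Ligand sums stay between 5955 and 7386, while receptor sums run from 169.9 to 718.

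Known ligand and receptor pairs were compared as the log2 ratio of normalized counts within a library. These ratios were not divided by exon length, so they compare libraries and groups, not the level of a ligand with that of its receptor. For Sema4d over Plxnb2 the ratio was 8.12 ± 0.74 (SD, n = 3) under the GC-treated label and 7.10 ± 0.55 in the vehicle-treated ones, a difference of 1.02. The difference was 1.27 for Sema4a over Plxnb2, from 8.21 ± 0.86 and 6.94 ± 0.55. It was 1.22 for Sema4a over Plxnd1, from 8.62 ± 0.70 and 7.40 ± 0.80, and 0.88 for Sema4a over Nrp1, from 3.45 ± 0.78 and 2.57 ± 0.79. Groups overlapped for each pair, and each had p = 0.2 in a two-sided exact permutation test (adjusted p = 0.2 over the 4 pairs), where 3 against 3 libraries cannot give a p under 0.1. Without GC-treated 3 the difference was 0.61 for Sema4d over Plxnb2 and 0.81 for Sema4a over Plxnb2, and for Sema4a over Nrp1 it was 0.49 without GC-treated 2 and 0.51 without vehicle-treated 2.

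Across the 6 libraries the levels of the receptors were correlated with each other, and those of the ligands mostly less so, though no pair passed the adjustment. Pearson r of log2(normalized count + 1) was positive for 6 of 6 pairs of receptors, from 0.72 to 0.95 with a median of 0.90. It was positive for 12 of 16 pairs of a ligand with a receptor (median 0.66) and for 4 of 6 pairs of ligands (median 0.35). Sema7a was positive with each receptor (0.66, 0.73, 0.86 and 0.85 with Plxnb2, Plxnd1, Nrp1 and Epha3), and so were Sema4b (0.78, 0.66, 0.73 and 0.80) and Sema4d (0.70, 0.51, 0.20 and 0.47), while Sema4a was negative with each. Without GC-treated 2 and 3, Sema4b had 0.15, -0.24, 0.083 and -0.12, and Sema7a had 0.67, 0.91, 0.42 and 0.52. Without GC-treated 2 and vehicle-treated 2, Sema4a had 0.53, 0.33, -0.040 and 0.25. Without GC-treated 3 and vehicle-treated 3, Sema4d rose to 0.93, 0.83, 0.999 and 0.99. In the few libraries left, Sema4d ran only from 34729.6 to 35617 normalized counts, so these r rest on nearly level values. After each group's mean was subtracted, r for pairs of receptors ran from 0.53 to 0.91.

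The closest pair was Plxnb2 and Plxnd1, with r = 0.95 and Spearman's rho = 1 (exact permutation p = 0.0028 for both, adjusted p = 0.078 over 28 pairs), and r = 0.98 without the farthest libraries, GC-treated 3 and vehicle-treated 1. Nrp1 and Epha3 had r = 0.93 and rho = 0.94 (exact permutation p = 0.011 and 0.017, adjusted p = 0.078 and 0.093), and r = 0.94 without GC-treated 2 and vehicle-treated 2. Epha3 was also close to Plxnd1 (r = 0.90, rho = 0.94, exact permutation p = 0.0083 and 0.017, adjusted p = 0.078 and 0.093) and to Plxnb2 (r = 0.89, rho = 0.94, exact permutation p = 0.0056 and 0.017, adjusted p = 0.078 and 0.093). Without GC-treated 3 and vehicle-treated 1 these were 0.95 and 0.89. Because Epha3 was high in 3 libraries and low in 3, its correlations largely set these against each other. None of the 28 pairs passed the adjustment by r or by rho, and 5 had an unadjusted exact permutation p under 0.05 for r.

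Other relations rested on few libraries. Sema7a with Nrp1 had r = 0.86 and rho = 0.83 (exact permutation p = 0.022 and 0.058, adjusted p = 0.12 and 0.15), which was 0.42 without GC-treated 2 and 3. Sema4a ran against Nrp1 with r = -0.79 and rho = -0.60 (exact permutation p = 0.061 and 0.24, adjusted p = 0.18 and 0.34), but r was -0.040 without GC-treated 2 and vehicle-treated 2. High correlations were common in these libraries. A share of 14.9% of the other 11648 tested genes had r of at least 0.8 with Plxnb2, 10.3% with Plxnd1, 7.49% with Nrp1 and 12.2% with Epha3, beside 4.22% to 7.92% with the ligands. Of the 28 pairs of the 8 genes, 6 reached it.

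**Figure D3:**
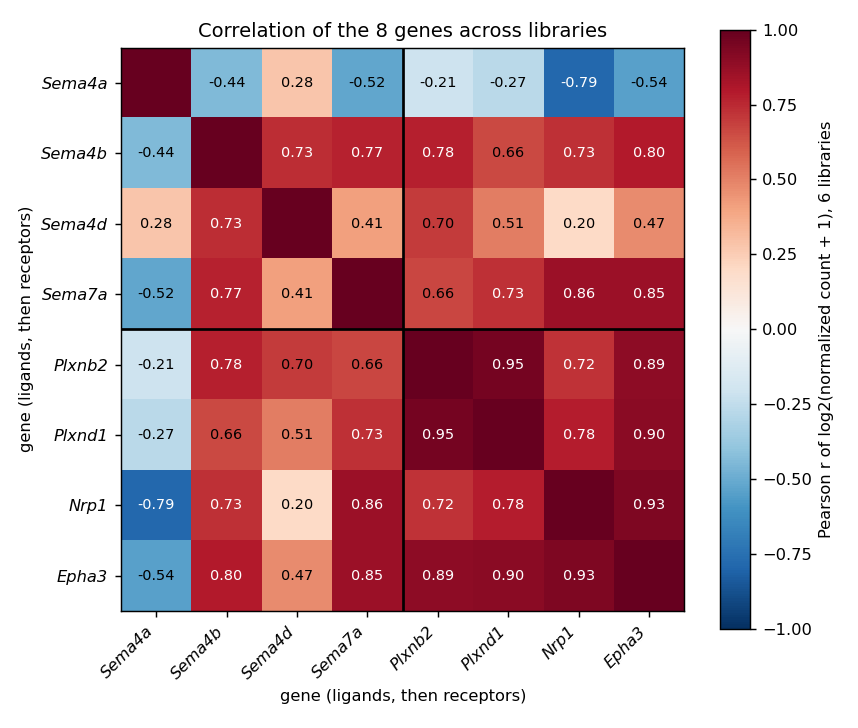
Pearson r of log2(normalized count + 1) over 6 libraries for each pair of the 8 genes, with a black line parting ligands from receptors and colour from blue (negative) to red (positive). The block of receptors holds values of 0.72 to 0.95, and Sema4a is negative with each receptor.

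The order of the libraries by Nrp1, from high to low, was vehicle-treated 2, vehicle-treated 1, GC-treated 1, vehicle-treated 3, GC-treated 3 and GC-treated 2. The share of mitochondrial reads followed the same order as Nrp1, at 1.13%, 0.910%, 0.902%, 0.757%, 0.615% and 0.400%. The summed level of 8 neutrophil markers (of 11 listed) followed the reverse order, at 337, 542, 1735, 3870.5, 8318 and 12242. Its range was 1735 to 12242 in the libraries labelled GC-treated and 337 to 3870.5 in the vehicle-treated ones. Ltf, the marker with the highest mean, was at 0 in vehicle-treated 1, and Mmp8 and Retnlg were at 0 in vehicle-treated 1 and 2. Single markers did not all follow the order of the sum. Elane was lowest in GC-treated 2 (25.8) and highest in vehicle-treated 3 (363), with a log2 fold change of -0.39. Mpo was highest in vehicle-treated 3 (795), and Mmp8 and Retnlg were highest in GC-treated 3 (987 and 301). Of these 8 markers, 5 were higher in the libraries labelled GC-treated at an unadjusted p under 0.05 by limma, beside 2.12% of genes, and 0 passed the adjustment. The other receptors did not follow this order throughout, since Plxnb2, Plxnd1 and Epha3 were lowest in GC-treated 3, and Plxnb2 and Plxnd1 were highest in vehicle-treated 1. The part of neutrophil RNA or of mitochondrial content in the levels of the receptors was not tested.

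**Figure D4:**
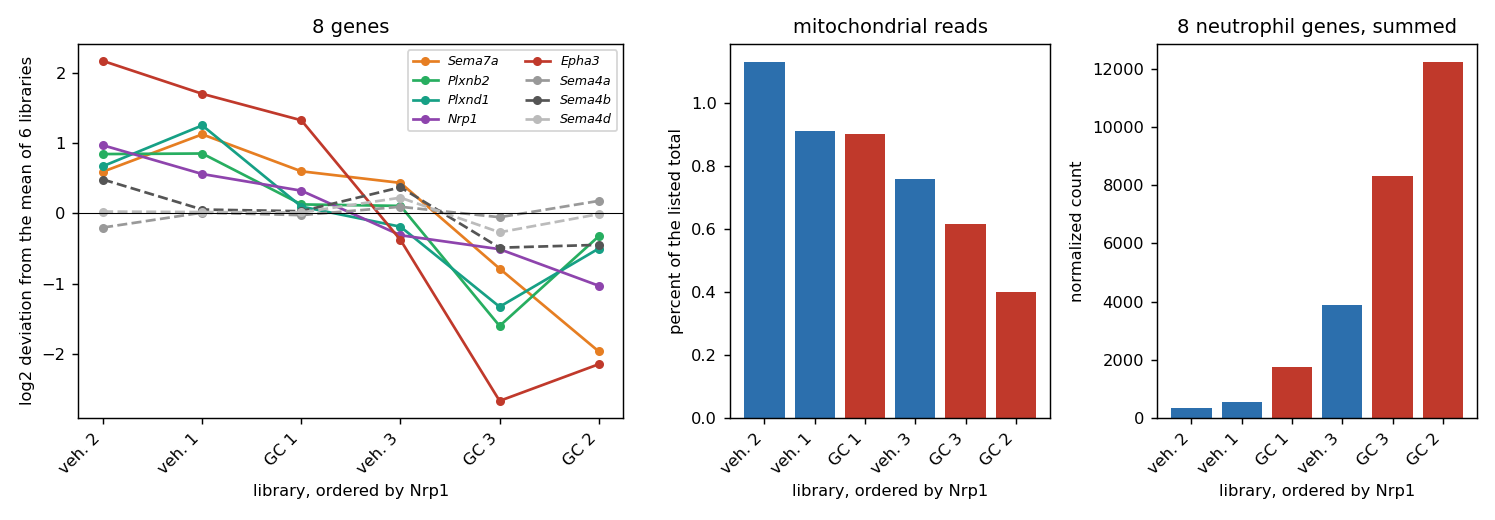
Left, log2 deviation of each of the 8 genes from its mean over the libraries, with libraries in the order of Nrp1 (solid lines Sema7a and the receptors, dashed lines the other ligands). Middle and right, percent of mitochondrial reads and summed normalized count of 8 neutrophil genes in the same order (red GC-treated, blue vehicle-treated), which fall from 1.13% to 0.400% and climb from 337 to 12242.

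Other genes of the pathway also mostly had negative log2 fold changes, and none passed the test. Of the other semaphorins, 6 were tested, 5 had negative log2 fold changes and the median was -0.35, beside -0.0079 over all tested genes. Sema4f, which had the highest mean of them (690.0 normalized counts), had -0.35, Sema4c had -0.53 and Sema6d had 0.46. Of the other plexins and neuropilins, 5 of 6 were negative with a median of -0.28. At an unadjusted p under 0.05 by limma, 2 of the 6 were lower, beside 5.07% of all tested genes. These were Plxna3 at -1.18 and Nrp2, the second neuropilin, at -0.44, whose groups did not overlap. Plxna1 had -0.39.

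The plexin with the highest level was Plxnc1, a receptor for Sema7a. It had 4694, 4747 and 3874 normalized counts in GC-treated 1 to 3 and 5246, 4365 and 4857 in vehicle-treated 1 to 3, with a log2 fold change of -0.12. Per kb of exon its mean, 538, was above that of Nrp1, 309. Before division by length the means were nearly equal, at 4631 and 4705 normalized counts. The order thus came from the merged exon lengths, 8.614 kb for Plxnc1 and 15.24 kb for Nrp1. Of the integrin chains that bind Sema7a, Itga1 had -0.47 with groups that did not overlap (SE 0.14, adjusted p = 0.62 by limma), and Itgb1 had -0.22. Cd72, a receptor for Sema4d known on B cells, had 0.13 and 383 per kb.

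Of the other Eph receptors 2 were tested, Ephb6 at -0.11 and Epha1 at -0.69. Ephb6, which lacks kinase activity, had a mean of 899.9 normalized counts and a narrower range than Epha3, at 896, 755 and 937 in GC-treated 1 to 3 and 1122, 879.95 and 809.6 in vehicle-treated 1 to 3. Ephrins were scarce, with 4 tested, 2 of each sign and a median of -0.0089. Efnb1, the highest, had a mean of 52.9 normalized counts and a log2 fold change of -0.14, Efnb2 had -0.72 and Efna4 had 0.54.

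**Figure D5:**
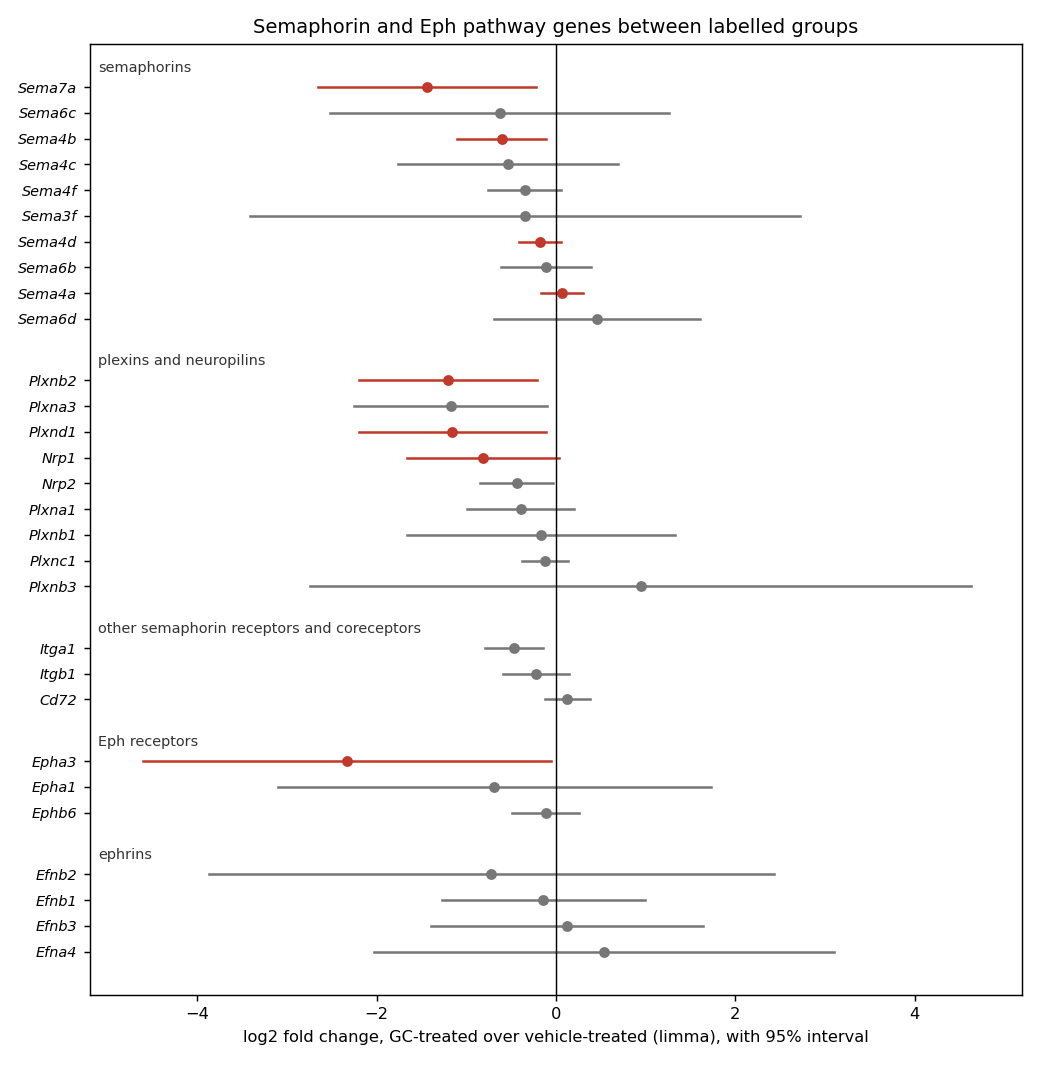
Log2 fold change (libraries labelled GC-treated over vehicle-treated) of each tested gene of 5 pathway lists by limma, with the unadjusted 95% interval as a line (red the 8 genes, grey the other genes of the lists). Most points lie left of 0, Epha3 farthest at -2.33, and none passed the adjustment.

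By a fixed rule, the genes most like each of the 8 were taken from 9682 tested genes with a mean of at least 100, by Pearson r over the 6 libraries. For Plxnb2 they were Plekha2 (r = 0.996) and Prkdc (0.994), for Plxnd1 Smg9 and Tmc8 (0.99 both), for Nrp1 Smco4 and Popdc2 (0.99 both) and for Epha3 Phlpp1 (0.997) and Sp1 (0.996). For the ligands they were Tmem185b and Lcp1 for Sema4a, Cdca2 and Tbc1d1 for Sema4b, Eml4 and Epb41l2 for Sema4d and Fmnl3 and Szrd1 for Sema7a, all with r = 0.99. None of the 8 genes was named as most like another of them. With 6 libraries and so many candidates, values near 1 are a description only.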

How the data were processed

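Bulk RNA-Seq of 6 libraries was used. The authors aligned reads with STAR to GRCm39, counted them per gene with summarizeOverlaps on Gencode annotation and ran DESeq2 (versions not given in the sources used here, which also leave filters on genes unsaid). The deposited unit is a normalized signal: each library's counts over its own size factor. Within 0.001, 100% of values were whole multiples of a step per library, so reads were recovered. The step of GC-treated 2 lies near 1 and could not be judged automatically.

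Groups were taken from the labels. Genes reaching 10 in 3 or more libraries (11649 of 14051) were tested with limma 3.58.1 with a mean-variance trend on log2(value + 1) in R 4.3.3, adjusted by Benjamini-Hochberg at a threshold of 0.05. Adding 1 lowered the changes of low genes slightly, with Epha3 at -2.33, and at -2.34 with 0.5 added. Means of log2 values gave larger changes than edgeR for Epha3 (-2.33 against -1.56) and Sema7a (-1.44 against -1.10). For Plxnd1 the values were -1.16 and -1.17. Ratios and correlations were tested by exact permutation with scipy 1.17.1. On recovered reads, edgeR 4.0.16 and DESeq2 1.42.0 were alternatives, beside other filters, pseudocounts, scalings, a replicate block and leaving out each library. The script was tested on simulated data. Exon lengths, coordinates and promoters were read from GRCm39 and Gencode M39, which is later than the authors' annotation.

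The members and lists were chosen with earlier results of these data known. Named genes were the 8 genes, from each pathway list up to 3 other tested genes with the smallest p and the gene with the highest mean, Tsc22d3 and Fkbp5, the marker with the highest mean of each cell type, and the 2 genes most like each member. Mmp8 and Retnlg were named after their values were seen, because they are at 0 in some libraries. Elane, Mpo, Cd4, Flt3, Ncr1, Cdh5, Itgax, Bst2 and Ctla4 were also named after their values were seen, to show where markers of the same list differ. Over all tested genes, same-numbered libraries did not deviate together, so the main test was not paired (values in the closing section).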

Additional observations from a re-analysis of the deposited data

How the results depend on the processing

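None of the 8 genes was called under any of the 16 alternatives. Over all genes, 0 were called lower or higher by limma, against 1 lower by limma without a trend, 2 lower by DESeq2, and 0 to 43 lower and 0 to 2 higher when each library was left out, the highest counts in both directions without GC-treated 1. Genes at an unadjusted p under 0.05 numbered 838, and 267 to 2380 without 1 library. The fold changes of 7 of the 8 genes kept their sign in 16 of 16 alternatives. That of Sema4a was -0.0076 without GC-treated 2 and -0.020 without vehicle-treated 2, and ran from -0.020 to 0.13 over the libraries left out. The log2 fold change of Epha3 was -1.56 by edgeR. Pairs of at least 0.8 were 6 by Pearson r and 11 by Spearman rho. The cause was not tested. Same-numbered libraries did not deviate together over all tested genes (correlations of 0.063, -0.14 and 0.13), and the replicate block called 0 genes and put 6 of the 8 lower at an unadjusted p under 0.05, beside 6.40% of all genes. The block lowered the SE of Sema7a (0.54 to 0.35) and of each receptor (Epha3, 1.01 to 0.61). It raised the SE of the other ligands (Sema4b, 0.22 to 0.25). The low counts of Epha3 and Plxnd1 in GC-treated 3 limit their precision.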

Other observations

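Genes that act downstream of plexins and Eph receptors had a median log2 fold change near that of all genes. Of 29 listed partners, 27 were tested, the log2 fold change was negative for 18 and positive for 9, the median was -0.072 beside -0.0079 over all tested genes, and none passed the test by limma. Cdc42, a small GTPase with the highest mean of the list, had a log2 fold change of -0.010. Arhgef12, an exchange factor that class B plexins bind, had -0.50 with groups that did not overlap (adjusted p = 0.62 by limma). It was the only 1 of the 27 partners lower at an unadjusted p under 0.05 by limma, beside 5.07% of all tested genes. Groups without overlap, GC-treated lower, were found for 6.40% of all tested genes. Arhgef11, a close relative of Arhgef12, had -0.59, and Farp1 had -0.72.

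Farp1 had 939, 357 and 581 normalized counts in GC-treated 1 to 3 and 978, 1339 and 662 in vehicle-treated 1 to 3, so that GC-treated 2 and 3 were its lowest libraries, as they were for the receptors. Slits, netrins and their receptors were scarce, with 3 of 19 listed genes tested. Unc5a, the highest, had a mean of 328 normalized counts and a log2 fold change of -0.030, while Rgmb and Neo1 had -1.20 and -1.38 at means of 36.7 and 25.6.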
